A study of Homo sapiens with 2 samples.

Results

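Cadherins and protocadherins are membrane proteins that hold cells together through calcium-bound extracellular repeats. Members were chosen by symbol, as every gene of the feature list named CDH or PCDH in the standard form. Of 101 symbols with that form, 12 were left out as 5 antisense or divergent transcripts and 7 pseudogenes. This left 89 of the 61487 genes in the files. They comprise 23 cadherins, called classical here although a few such as CDH13, CDH16, CDH17 and CDH23 are atypical, 13 non-clustered protocadherins and 53 clustered protocadherins. The clustered genes are 15 of PCDHA, 16 of PCDHB and 22 of PCDHG. The non-clustered PCDH11Y is Y-linked, so it is counted as a member and no level is given, which leaves 88 members with values.

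The study asked what FOXA2, a transcription factor of the floor plate, does in the making of human serotonin neurons. Both libraries came from the human embryonic stem cell line WA09 with an EGFP reporter knocked into TPH2, the gene of the enzyme that starts neuronal serotonin synthesis. At day 42 of differentiation, EGFP-positive cells were sorted and taken through the 10x Genomics 3' kit (v3), which counts 1 tag per captured transcript molecule (UMI). The library labelled WT carries the reporter alone, and the library labelled FKO carries the reporter and a FOXA2 knockout, made by CRISPR-Cas9 as an indel in a line grown from picked drug-resistant clones. There is 1 library per genotype, with no replicates, so no test between genotypes is possible. The sources used here state no dose of the patterning agent purmorphamine for these libraries, and a code in the file name of one is not explained. Elsewhere in the study, some day 42 cultures had a lower dose for WT than for FKO, and whether that holds here is not given.

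Classical cadherins bind like partners across the cell junction and link to actin through catenins. Non-clustered protocadherins act in axon growth, cell sorting and synapse formation, and several bind classical cadherins on the same cell. Clustered protocadherins lie in tandem arrays in which each variable exon has its own promoter, and neurons pick a subset of them, which gives cell surfaces an identity used in self-avoidance. In mouse serotonin neurons, the alpha-array isoform PCDHAC2 is known to be needed for the even spacing of axons.

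For WT, the files list 11052 barcodes with 123064653 UMIs and a median of 10959.5 UMIs per barcode. For FKO, they list 8806 barcodes with 70588747 UMIs and a median of 6669.5. Barcodes with under 1000 UMIs, under 500 genes or over 10% mitochondrial UMIs were left out, as were predicted doublets. The mitochondrial limit weighed on the libraries unequally, with 39.8% of the barcodes labelled WT and 11.8% of those labelled FKO above it. Doublets were taken as the highest-scoring barcodes at 0.8% per 1000 barcodes, which removed 664 and 593 further cells. This kept 5721 cells (51.8%) labelled WT with 75898288 UMIs and 6980 cells (79.3%) labelled FKO with 58063063 UMIs. The libraries shared 21 barcode sequences.

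Levels are UMIs pooled over the kept cells, per 1000000 UMIs of the library (CPM). Ratios are log2 of FKO over WT with no pseudocount, and where a pair of levels is given, WT comes before FKO. Below, WT and FKO mean the labels of the libraries. Brackets hold exact 95% intervals, which cover counting error only and not the variation between cultures. A tag count is not divided by transcript length, so CPM may be compared between genes as captured 3' ends. Whether intronic reads were counted is not stated. In pooled values, fewer cells of a type and less RNA per cell cannot be told apart. A gene was compared when it reached 1 CPM in either library, which 16367 genes did.

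FOXA2 itself (ENSG00000125798) goes against the label. It had 4.11 CPM (3.67 to 4.59) in the WT-labelled library and 22.3 CPM (21.1 to 23.6) in the FKO-labelled library, a log2 ratio of 2.44 (2.26 to 2.62). A tag near the 3' end does not show an indel, so every direction below rests on the labels. In cells with at most 5% mitochondrial UMIs, 336 labelled WT and 2913 labelled FKO, the log2 ratio of FOXA2 was 0.30, under the median of 0.49 over all genes in those cells. In the other choices of cells and scaling it lay between 1.60, outside the side clusters described below, and 2.46, with no filter on barcodes. Of 6 floor plate genes compared, FOXA2 included, 3 were higher in the FKO-labelled library. Higher were also FOXA1, at 2.56 and 8.73 CPM, and NTN1, at 5.47 and 12.5 CPM. Lower were SHH, at 6.14 and 3.07 CPM, and CORIN, at 3.43 and 0.913 CPM. SPON1, at 28.8 and 28.5 CPM, was not told apart from equal levels by counting error. The marker genes of serotonin neurons were present in both libraries. FEV, the most abundant of the list of 11, had 1583 and 909 CPM, and TPH2 197 and 162 CPM. These were among 4 that were lower under FKO, and 7 were higher, such as SLC6A4 (21.4 and 44.4 CPM) and GATA3 (594 and 817 CPM). The median log2 ratio of the 11 was 0.77, or 0.18 relative to the median of 0.58 over all genes.

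Over the 16367 genes compared, the median log2 ratio was 0.58, or 1.497-fold, and 76.0% of genes were higher in the FKO-labelled library. Changes are therefore also given relative to this median gene. MALAT1, a nuclear RNA that takes a large part of all UMIs, had 56750 and 58040 CPM. NEAT1, another nuclear RNA, had 28.7 and 164 CPM. The part of depth, RNA quality and mitochondrial load in the ratios was not tested.

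Of the 88 members with values, 58 reached 1 CPM and 30 did not. Of the 58, 44 reached it in both libraries, 14 in the FKO-labelled library alone and 0 in the WT-labelled library alone. The members that passed through the library labelled FKO alone had to be higher there, so counts over those that passed describe them and support nothing. At least 2-fold above the median gene were 22 members, against 11.7% of all genes compared, and at least 2-fold below it were 0 members, against 11.1% (1 or 2 members under 3 of the alternatives). Without the median gene taken off, 41 members were at least 2-fold higher in the FKO-labelled library, against 29.4% of all genes, and 0 were at least 2-fold lower, against 2.43%. Both the count and the share over all genes fell with stricter filters. Among the 28 members with at least 10 CPM there were 5 in place of the 22, against 5.66% of all genes at that filter, and 17 in place of the 41, against 20.7%. Among the 44 that passed in both libraries there were 12, against 5.11% of all genes that did so. In all, 55 members of the 58 were higher in the FKO-labelled library, against 76.0% of all genes. Above the median gene lay 48, against 8183 of the 16367 genes. Among the 44 that passed in both libraries, 41 were higher under FKO, against 73.8% of all genes that did so. Of the same 44, 35 lay above the median gene, against 44.3%. The 7 members whose direction flips between those scales are CDH2, CDH18, PCDH18, PCDHA12, PCDHB7, PCDHB15 and PCDHGB7. Summed over all members, the level was 999 CPM in the WT-labelled library and 2032 CPM in the FKO-labelled library.

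**Figure D1:**
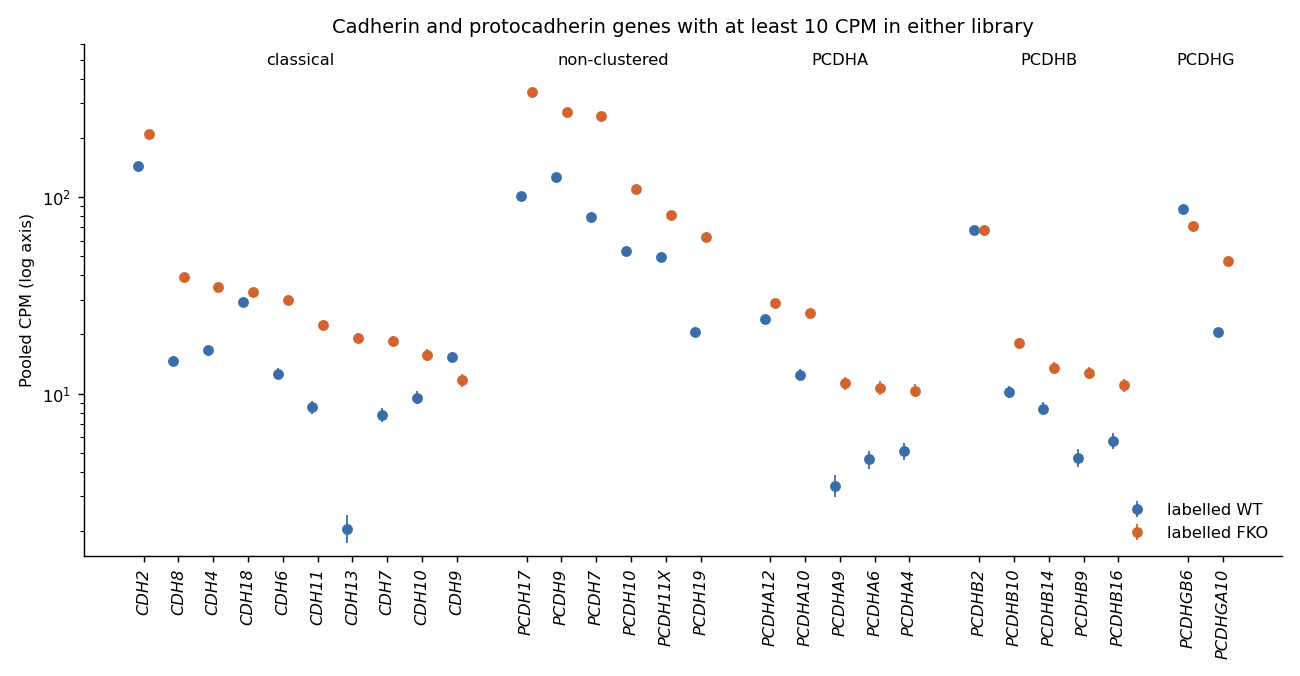
Pooled CPM (log axis) of the 28 members with at least 10 CPM in either library, with 95% intervals, for the libraries labelled WT and FKO. PCDHGB6, PCDHB2 and CDH9 are the members without a higher point in the FKO-labelled library. Relative to the median gene CDH18 and PCDHA12 are lower there too, and CDH2 lies near it (-0.04).

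The classical group summed to 269.8 CPM in the WT-labelled library and 465 CPM in the FKO-labelled library. Of its 23 genes, 15 were compared, with a median log2 ratio of 1.24, or 0.66 relative to the median gene. CDH2 (ENSG00000170558), the N-cadherin of neural junctions, had 143 CPM (141 to 146) and 209 CPM (205 to 213). Its log2 ratio of 0.55 (0.51 to 0.58) lies near the median gene, at -0.04 relative to it. CDH2 lay above the median gene with a filter of 10 CPM, with a filter on the average CPM and outside the side clusters described below (0.03). CDH4, the R-cadherin that is closest to CDH2 in the type I branch, had 16.6 and 34.8 CPM, for a log2 ratio of 1.07 (0.96 to 1.17). CDH2 was thus the most abundant classical gene in each library, and CDH4 differed more between them.

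Cadherins best known from outside the nervous system were low. CDH1, the E-cadherin of epithelia and of undifferentiated stem cells, had 0 UMIs in the WT-labelled library, which allows up to 0.0395 CPM at 3 counts, and 9 UMIs (0.155 CPM) in the FKO-labelled library. This is at least 3.92-fold higher, and it comes from 9 molecules among 6980 cells. CDH3, the P-cadherin, had 0.343 and 1.52 CPM, for a log2 ratio of 2.15 (1.5 to 2.84). This is 1.56 above the median gene, and at least 0.45 at a limit of 5% mitochondrial UMIs, where it had 0 and 43 UMIs. CDH5, the endothelial VE-cadherin, had 0 and 1 UMIs, and CDH16, known from kidney, had 0 in both. CDH1, CDH5 and CDH16 thus had under 10 UMIs each. Other epithelial markers were present, and 3 of the list of 4 were lower under FKO. EPCAM had 14.1 and 18.4 CPM, KRT19 26.4 and 7.51, KRT18 7.75 and 4.70, and KRT8 3.76 and 2.26, and the list summed to 52.0 and 32.8 CPM.

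Type II cadherins bind in subsets and mark pools of neurons. CDH8 had 14.6 and 39.2 CPM, for a log2 ratio of 1.43 (1.32 to 1.53). CDH6 had 12.6 and 29.9 CPM, at 1.24 (1.13 to 1.36). CDH7 had 7.83 and 18.5 CPM, at 1.24 (1.10 to 1.39). These 3 genes lay 0.66 to 0.84 above the median gene. At a limit of 5% mitochondrial UMIs, CDH8 lay 0.24, CDH7 0.22 and CDH6 0.51 above the median gene of those cells. CDH10 had 9.54 and 15.7 CPM, at 0.72 (0.58 to 0.87), and relative to the median gene it lay between 1.02 and -1.22 across the pairs of clusters described below. CDH18 had 29.3 and 32.8 CPM, at 0.16 (0.07 to 0.25). Relative to the median gene CDH18 was lower, at -0.42, and without that scaling its ratio fell to -0.02 at a limit of 5% mitochondrial UMIs.

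CDH9, a type II cadherin known from synapse formation in the hippocampus, was the classical gene that was lower in the FKO-labelled library. It had 15.4 CPM (14.5 to 16.3) and 11.7 CPM (10.9 to 12.6). Its log2 ratio was -0.39 (-0.53 to -0.25), which is -0.97 relative to the median gene. The largest ratio among classical genes with at least 10 CPM belonged to CDH13, the T-cadherin, which is held in the membrane by a lipid anchor and has no tail for catenins. It had 2.06 CPM (1.75 to 2.40) and 19.1 CPM (18.0 to 20.3), a log2 ratio of 3.22 (2.97 to 3.47). CDH22 had 1.502 and 4.75 CPM, at 1.66 (1.34 to 1.99), which is 1.08 above the median gene and 0.73 after every cell was thinned to 2000 UMIs. Over clusters of at least 200 cells labelled FKO, CDH13 ran from 4.68 CPM in cells led by SLC17A8 to 38.1 CPM in cells led by ONECUT3.

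CDH11, a type II cadherin of mesenchyme and also of neurons, had 8.51 and 22.4 CPM, for a log2 ratio of 1.39 (1.26 to 1.53). CDH19, known from glia of the peripheral nerve, had 2 UMIs in the WT-labelled library and 328 in the FKO-labelled library. These are 0.0264 and 5.65 CPM, for a log2 ratio of 7.74 (5.88 to 10.80). At a limit of 5% mitochondrial UMIs, the level of CDH19 under FKO was 0.95 CPM, under the filter, so it was not compared. This level was 1.85 CPM in cells with a TPH2 UMI and 8.81 CPM with no filter on barcodes. After every cell was thinned to 2000 UMIs, CDH19 had 0 UMIs under WT and a log2 ratio of at least 4.05. Both genes had their highest level in 1 cluster of the library labelled FKO. This cluster of 171 cells, called mesenchymal-like after COL1A1 and COL1A2 among its leading genes, was not paired with a cluster of the WT-labelled library. It had 7602 CPM over the list of mesenchymal markers. The cycling-like cluster labelled WT, with LUM among its leading genes, had 622 CPM over that list. The mesenchymal-like cluster also had 1141 CPM over the glial markers and 6639 CPM over the progenitor markers. The whole FKO-labelled library had 56.1 and 1177 CPM over these 2 lists. The mesenchymal-like cluster held 226 of the 328 CDH19 UMIs (68.9%), at 145 CPM (127 to 165), and the cycling-like cluster of the same library held 88 more (26.8%). CDH11 reached 265 CPM (240 to 292) in the mesenchymal-like cluster, where it was the most abundant member, against 22.4 CPM over the library. CDH6 reached 136 CPM (119 to 156) there. Outside the side clusters, meaning the cycling-like, mesenchymal-like, stress-like, LHX1-led and shallow cells, CDH19 had 0.0287 and 0.257 CPM. CDH11 had 7.83 and 13.0 CPM there, so that its log2 ratio fell from 1.39 to 0.73, or 0.16 relative to the median gene of those cells, and CDH6 had 1.08 in place of 1.24.

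The mesenchymal list of 9 genes, all of which reached 1 CPM, summed to 39.6 CPM in the WT-labelled library and 253 CPM in the FKO-labelled library. Its most abundant gene was LUM under WT, at 12.6 and 15.5 CPM, and COL1A2 under FKO, at 2.73 and 84.3 CPM, and none of the 9 was at 0. After every cell was thinned to 2000 UMIs, a CDH19 UMI was found in 22.9% (16.9% to 30%) of 170 mesenchymal-like cells. It was found in 0 of 1336 cells of the largest cluster of that library, led by STC1, which allows a share with a detected UMI of up to 0.276% at that depth. Cells with a low level can go undetected there. Median depths before thinning were 8018.5 and 8513 UMIs. CDH11 was found in 51 of the 170 mesenchymal-like cells and in 2.99% (2.15% to 4.05%) of the STC1-led cells. FEV, which mesenchyme should lack, was found in 11.2% (6.86% to 16.9%) of the mesenchymal-like cells and 85.9% of the STC1-led cells. The background share of each member in these cells was not measured.

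Non-clustered protocadherins had the highest sum of assigned tags of the groups, with 443 CPM in the WT-labelled library and 1153 CPM in the FKO-labelled library. Of the 13 genes, 10 were compared, and all 10 were higher in the FKO-labelled library, against 76.0% of all genes. Their median log2 ratio was 1.10, or 0.51 relative to the median gene, and relative to it 9 were higher and PCDH18 was lower. PCDH17 (ENSG00000118946), which acts in axon extension and at presynaptic sites, had 101 CPM (98.6 to 103) and 343 CPM (339 to 348), a log2 ratio of 1.77 (1.73 to 1.81). Only CDH2 and PCDH9 had a higher level among members under WT, and no member did under FKO. PCDH7 had 78.9 and 258 CPM, at 1.71 (1.67 to 1.75). PCDH19, which binds CDH2 on the same membrane and whose loss causes an epilepsy, had 20.7 and 62.6 CPM, at 1.60 (1.51 to 1.69). These 3 lay at least 2-fold above the median gene. PCDH19 did so narrowly, at 1.02, and was under 2-fold with doublets kept (0.997), with no filter on barcodes (0.94), with the mean of the per-cell CPM (0.98) and after thinning (0.89). At a limit of 5% mitochondrial UMIs it rose to 1.82. With genes down to 0.1 CPM the median gene was higher, and PCDH17 lay 0.99, PCDH7 0.93 and PCDH19 0.82 above it.

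PCDH9 had 126 and 269 CPM, for a log2 ratio of 1.10 (1.06 to 1.13). PCDH10, which recruits an actin regulator in growing axons, had 53.0 and 109.5 CPM, at 1.05 (0.99 to 1.10). PCDH11X had 49.6 and 80.9 CPM, at 0.70 (0.64 to 0.77), which is 0.12 above the median gene. It lay under the median gene with at most 20% mitochondrial UMIs (-0.09), with no filter on barcodes (-0.10) and with genes down to 0.1 CPM (-0.07). PCDH8, known as a protein induced by neuronal activity that draws CDH2 from synapses, had 1.94 and 8.89 CPM, at 2.20 (1.93 to 2.47). PCDH15, which forms the tip links of hair cells with CDH23, was among the 13 members of 1 to 10 CPM within 2-fold of the median gene, whose log2 ratios ran from 0.48 to 1.52. PCDH18, another of these, changed sign with the setting, between -0.74 and 0.62.

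**Figure D2:**
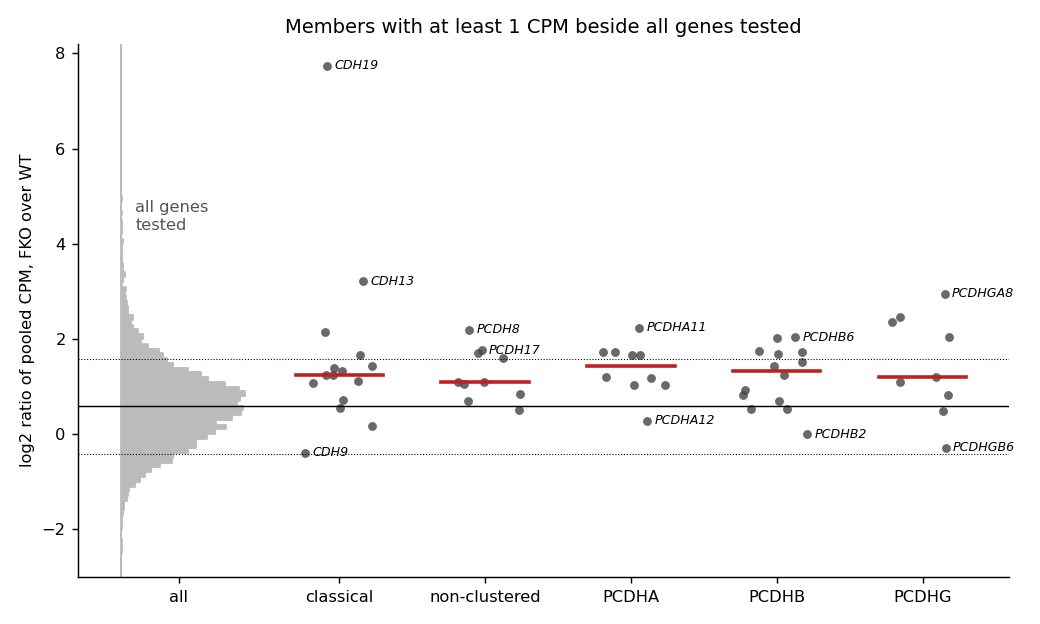
Log2 ratio of pooled CPM, FKO over WT, for the 58 members compared, by group, beside all 16367 genes. The solid line is the median gene at 0.58, dotted lines lie 2-fold from it and red bars are group medians: each group median lies above 0.58, and 10 of the 58 points lie under it. Of the points, 14 are of members that passed the filter in the FKO-labelled library alone and had to lie above 0.

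The clustered protocadherins lie side by side on chromosome 5 of GRCh38, with PCDHA at chr5:140786136-141012347, PCDHB at chr5:141051135-141249365 and PCDHG at chr5:141330571-141512981 by GENCODE 29. In PCDHA and PCDHG each variable exon is spliced to shared constant exons, and a 3' tag in the shared part cannot be given to a gene. All 15 PCDHA and all 22 PCDHG genes have a transcript that ends in a shared exon, and 12 and 20 of them also have one that ends in an exon of its own. The 16 PCDHB genes have no shared last exon. Levels of PCDHA and PCDHG genes are therefore those of tags that could be assigned, and their true levels were not measured. Close paralogs can also share sequence within their own exons, in PCDHB too, and its effect on the counts was not measured.

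Each variable exon has a promoter of its own, and these promoters are shown because the members of an array share a sequence that was not used in choosing them. Promoters of 250 bases before to 50 after the start were taken from RefSeq (GRCh38.p14), where 47 of the 53 clustered members had an entry. In each array, the word of 9 bases found in the promoters of the most genes, on either strand, was taken. It was GGTGGCGCT, with AGCGCCACC on the other strand, for PCDHB, in 13 of 14 genes. It was GATGTCGCT, with AGCGACATC on the other strand, for PCDHA, in 9 of 13, and GCGCCGCTG, with CAGCGGCGC on the other strand, for PCDHG, in 10 of 20. The words occur in 0.501%, 0.105% and 1.28% of all 35116 promoters, in the order PCDHB, PCDHA and PCDHG. None occurs in either of the other arrays, and the PCDHG word is in 1 of 12 classical promoters. A word picked as the most common will be common in the genes it was picked from, so these shares describe the arrays and test nothing. All 3 words hold the letters CGCT, which were looked for after the words had been seen. CGCT is in 46 of the 47 clustered promoters, but also in 12 of 12 classical ones and in 70.0% of all promoters, so by itself it does not set the arrays apart. Matches were exact, so a promoter with a near copy counts as without the word. A match is not evidence of a bound factor.

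The PCDHB promoters are of the most abundant gene of the array, PCDHB2 (chr5:141094365-141094664, + strand), of the next, PCDHB10 (chr5:141192103-141192402, + strand), and of PCDHB1 (chr5:141051124-141051423, + strand), the gene without the word. Capitals mark the word of the array.
PCDHB2: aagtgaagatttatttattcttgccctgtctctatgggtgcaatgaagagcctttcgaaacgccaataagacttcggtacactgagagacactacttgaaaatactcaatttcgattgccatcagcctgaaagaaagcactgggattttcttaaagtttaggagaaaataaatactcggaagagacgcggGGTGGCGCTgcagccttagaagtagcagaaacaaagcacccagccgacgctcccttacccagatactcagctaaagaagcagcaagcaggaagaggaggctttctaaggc
PCDHB10: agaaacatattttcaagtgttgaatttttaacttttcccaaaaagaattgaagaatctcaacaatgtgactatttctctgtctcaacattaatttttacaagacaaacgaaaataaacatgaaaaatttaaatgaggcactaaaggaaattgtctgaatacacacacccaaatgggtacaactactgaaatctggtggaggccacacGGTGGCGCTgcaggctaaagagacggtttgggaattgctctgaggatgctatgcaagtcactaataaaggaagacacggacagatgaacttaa
PCDHB1: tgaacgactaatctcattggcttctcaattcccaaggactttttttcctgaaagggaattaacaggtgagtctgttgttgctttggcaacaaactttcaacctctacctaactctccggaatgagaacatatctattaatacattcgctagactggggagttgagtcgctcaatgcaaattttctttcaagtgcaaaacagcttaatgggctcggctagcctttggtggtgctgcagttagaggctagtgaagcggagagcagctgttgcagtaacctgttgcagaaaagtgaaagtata

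PCDHB summed to 116 CPM in the WT-labelled library and 169 CPM in the FKO-labelled library, and 14 of its 16 genes were compared, with a median log2 ratio of 1.34, or 0.75 relative to the median gene. Over the 12 that passed in both libraries it was also 1.34. PCDHB2 (ENSG00000112852) had 68.1 CPM (66.3 to 70.0) and 67.8 CPM (65.7 to 70.0). Its log2 ratio of -0.01 (-0.07 to 0.05) is not told apart from 0 by counting error, and it is -0.59 relative to the median gene. PCDHB10 had 10.2 and 18.1 CPM, at 0.83 (0.69 to 0.97). PCDHB1, without the word, had 2 and 3 UMIs, at or under the floor of 3 counts in both libraries. PCDHB8, with the word, had 3 and 15 UMIs, so a low level was also seen with the word present.

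PCDHB2 took 58.9% (57.9% to 59.97%) of the PCDHB UMIs under WT and 40.1% (39.1% to 41.1%) under FKO. PCDHB14 had 8.39 and 13.5 CPM, for a log2 ratio of 0.69 (0.54 to 0.84). PCDHB9 had 4.72 and 12.7 CPM, at 1.43 (1.25 to 1.62), and PCDHB16 had 5.77 and 11.02 CPM, at 0.93 (0.76 to 1.11). Each of these had under 10 CPM in the WT-labelled library and over 10 in the FKO-labelled library. Under 10 CPM in both libraries and at least 2-fold above the median gene were PCDHB3 (1.16 and 4.70 CPM), PCDHB4 (1.502 and 5.01), PCDHB5 (2.70 and 8.96), PCDHB6 (0.448 and 1.84) and PCDHB13 (1.30 and 4.19). Their log2 ratios ran from 1.68 in PCDHB13 to 2.04 in PCDHB6. With genes down to 0.1 CPM, PCDHB4, PCDHB5 and PCDHB13 were under 2-fold above the median gene. At a limit of 5% mitochondrial UMIs, 2 of the 5 were under 2-fold, with PCDHB5 at 0.82 and PCDHB13 at 0.08 relative to the median gene. At that limit PCDHB3 had 2.67 in place of 1.44 on the same scale, from 2 and 134 UMIs, and no rise is read from 2 UMIs under WT. PCDHB6, with 0 and 58 UMIs there, lay at least 0.88 above the median gene. After thinning, PCDHB5 (0.75) and PCDHB13 (0.84) lay above the median gene but by under 2-fold.

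For PCDHA, the promoters are of PCDHA12 (chr5:140875058-140875357, + strand) and PCDHA10 (chr5:140855647-140855946, + strand), the most abundant genes of the array, and of PCDHA9 (chr5:140848132-140848431, + strand), an abundant gene without an exact match to the word. The PCDHA9 promoter holds gatgtcact, a near copy of the word. Capitals mark the word of the array.
PCDHA12: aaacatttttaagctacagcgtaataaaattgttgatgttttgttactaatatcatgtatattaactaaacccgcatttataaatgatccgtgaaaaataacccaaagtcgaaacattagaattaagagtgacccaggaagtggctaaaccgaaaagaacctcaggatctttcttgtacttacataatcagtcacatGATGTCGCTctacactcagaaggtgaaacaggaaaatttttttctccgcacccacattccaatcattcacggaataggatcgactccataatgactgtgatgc
PCDHA10: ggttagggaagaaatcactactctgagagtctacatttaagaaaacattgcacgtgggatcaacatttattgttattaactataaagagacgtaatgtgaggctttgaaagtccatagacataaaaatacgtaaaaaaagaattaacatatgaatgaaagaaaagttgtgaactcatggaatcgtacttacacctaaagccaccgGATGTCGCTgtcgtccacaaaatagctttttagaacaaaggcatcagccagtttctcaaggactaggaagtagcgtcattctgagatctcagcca
PCDHA9: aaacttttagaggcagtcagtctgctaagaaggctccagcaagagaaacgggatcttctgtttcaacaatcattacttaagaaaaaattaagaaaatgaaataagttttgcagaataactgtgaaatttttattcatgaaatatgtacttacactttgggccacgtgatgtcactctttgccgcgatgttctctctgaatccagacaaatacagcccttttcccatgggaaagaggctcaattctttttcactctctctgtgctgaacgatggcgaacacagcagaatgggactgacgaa

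PCDHA summed to 53.6 CPM in the WT-labelled library and 99.2 CPM in the FKO-labelled library, and 10 of its 15 genes were compared, with a median log2 ratio of 1.43, or 0.85 relative to the median gene. Of the 10, 5 passed in the FKO-labelled library alone, and over the 5 that passed in both the median was 1.04, or 0.46 relative to the median gene. PCDHA12 (ENSG00000251664) had 23.9 and 29.04 CPM, at 0.28 (0.18 to 0.38), which is -0.30 relative to the median gene. PCDHA10 had 12.5 and 25.7 CPM, at 1.04 (0.92 to 1.16). PCDHA12 took 44.6% (43.1% to 46.1%) of the PCDHA UMIs under WT and 29.3% (28.1% to 30.5%) under FKO, a smaller part. PCDHA9, without the word, had 3.40 and 11.3 CPM, at 1.73 (1.52 to 1.94). PCDHA6 had 4.62 and 10.7 CPM, at 1.21 (1.02 to 1.40), and PCDHA4 had 5.10 and 10.4 CPM, at 1.02 (0.84 to 1.21).

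The isoforms of the C type, PCDHAC1 and PCDHAC2, stand at the end of the alpha array, and are spliced to the same constant exons. PCDHAC1 had 0.962 and 3.03 CPM, at 1.66 (1.25 to 2.07). PCDHAC2, the isoform of serotonin neurons in mouse, had 54 UMIs (0.712 CPM) and 93 UMIs (1.60 CPM), a log2 ratio of 1.17 (0.67 to 1.68), and it was singled out after its values had been seen. Its assigned tags were thus few beside the 1814 of PCDHA12 and the 949 of PCDHA10 in the WT-labelled library. At least 2-fold above the median gene were also PCDHA5 (0.685 and 2.17 CPM), PCDHA11 (0.264 and 1.24) and PCDHA13 (0.698 and 2.31). PCDHA11 rests on 20 and 72 UMIs, and at a limit of 5% mitochondrial UMIs its log2 ratio was -0.18. At that limit PCDHA13 fell from 1.14 to -0.18 relative to the median gene, and PCDHAC1 from 1.07 to 0.97. PCDHA5 had 2.67 in place of 1.08 there, from 1 and 67 UMIs, and no rise is read from 1 UMI under WT. After thinning PCDHA13 lay 0.02 and PCDHA5 0.67 above the median gene. Both were also under 2-fold above it with no filter on barcodes and in cells with a TPH2 UMI. The same held with the mean of the per-cell CPM and with genes down to 0.1 CPM. PCDHA5 was under 2-fold with at most 20% mitochondrial UMIs (0.99) and outside the side clusters (0.9997) too.

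For PCDHG, the promoters are of PCDHGB6 (chr5:141407771-141408070, + strand, the upstream of its 2 RefSeq promoters) and PCDHGA10 (chr5:141412737-141413036, + strand), which hold most of the UMIs of the array and differ in direction. Capitals mark the word of the array.
PCDHGB6: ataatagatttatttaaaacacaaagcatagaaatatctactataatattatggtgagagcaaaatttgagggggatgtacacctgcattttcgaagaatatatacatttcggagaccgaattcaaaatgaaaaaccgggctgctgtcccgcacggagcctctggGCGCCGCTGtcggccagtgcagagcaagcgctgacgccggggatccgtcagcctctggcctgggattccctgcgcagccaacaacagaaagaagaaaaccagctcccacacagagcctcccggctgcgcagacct
PCDHGA10: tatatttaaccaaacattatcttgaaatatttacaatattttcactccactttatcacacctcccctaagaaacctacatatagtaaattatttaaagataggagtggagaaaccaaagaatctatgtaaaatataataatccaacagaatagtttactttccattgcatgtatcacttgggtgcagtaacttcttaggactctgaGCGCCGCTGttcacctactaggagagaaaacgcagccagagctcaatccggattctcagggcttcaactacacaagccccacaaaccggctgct

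PCDHG summed to 118 CPM in the WT-labelled library and 146 CPM in the FKO-labelled library, and 9 of its 22 genes were compared, with a median log2 ratio of 1.19, or 0.61 relative to the median gene. Over the 4 that passed in both libraries the median was 0.84, or 0.25 relative to the median gene. PCDHGB6 (ENSG00000253305) had 86.8 CPM (84.7 to 88.9) and 71.4 CPM (69.2 to 73.6). Its log2 ratio was -0.28 (-0.34 to -0.23), which is -0.86 relative to the median gene. PCDHGA10 (ENSG00000253846) had 20.6 CPM (19.6 to 21.7) and 47.1 CPM (45.4 to 48.9), at 1.19 (1.10 to 1.28). PCDHGB6 took 73.8% (72.9% to 74.7%) of the PCDHG UMIs under WT and 49.0% (47.9% to 50.1%) under FKO. PCDHGA10 took 17.5% (16.7% to 18.3%) and 32.3% (31.3% to 33.3%). These genes stand next to each other in the array, each with the word in a promoter, and their ratios differ in direction, also relative to the median gene.

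The other PCDHG genes were low. At least 2-fold above the median gene were PCDHGB4 (1.07 and 5.86 CPM), PCDHGA8 (0.567 and 4.39), PCDHGA9 (0.316 and 1.62) and PCDHGA12 (0.369 and 1.52). PCDHGA8 had the largest log2 ratio among clustered genes, 2.95 (2.48 to 3.46), from 43 and 255 UMIs. At a limit of 5% mitochondrial UMIs, PCDHGA8 had 4.10 from 1 and 128 UMIs, and no rise is read from 1 UMI under WT. PCDHGA9 and PCDHGA12 had 0 UMIs under WT at that limit, which gives at least 0.45 and 0.55 above the median gene. In all 3 arrays, the most abundant gene under WT had the lowest ratio of the genes compared. That gene was picked by its WT level, which is the denominator of the ratio. It was also ranked beside genes that passed through the FKO-labelled library alone and had to be higher there. The ranking therefore describes the arrays and tests nothing.

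**Figure D3:**
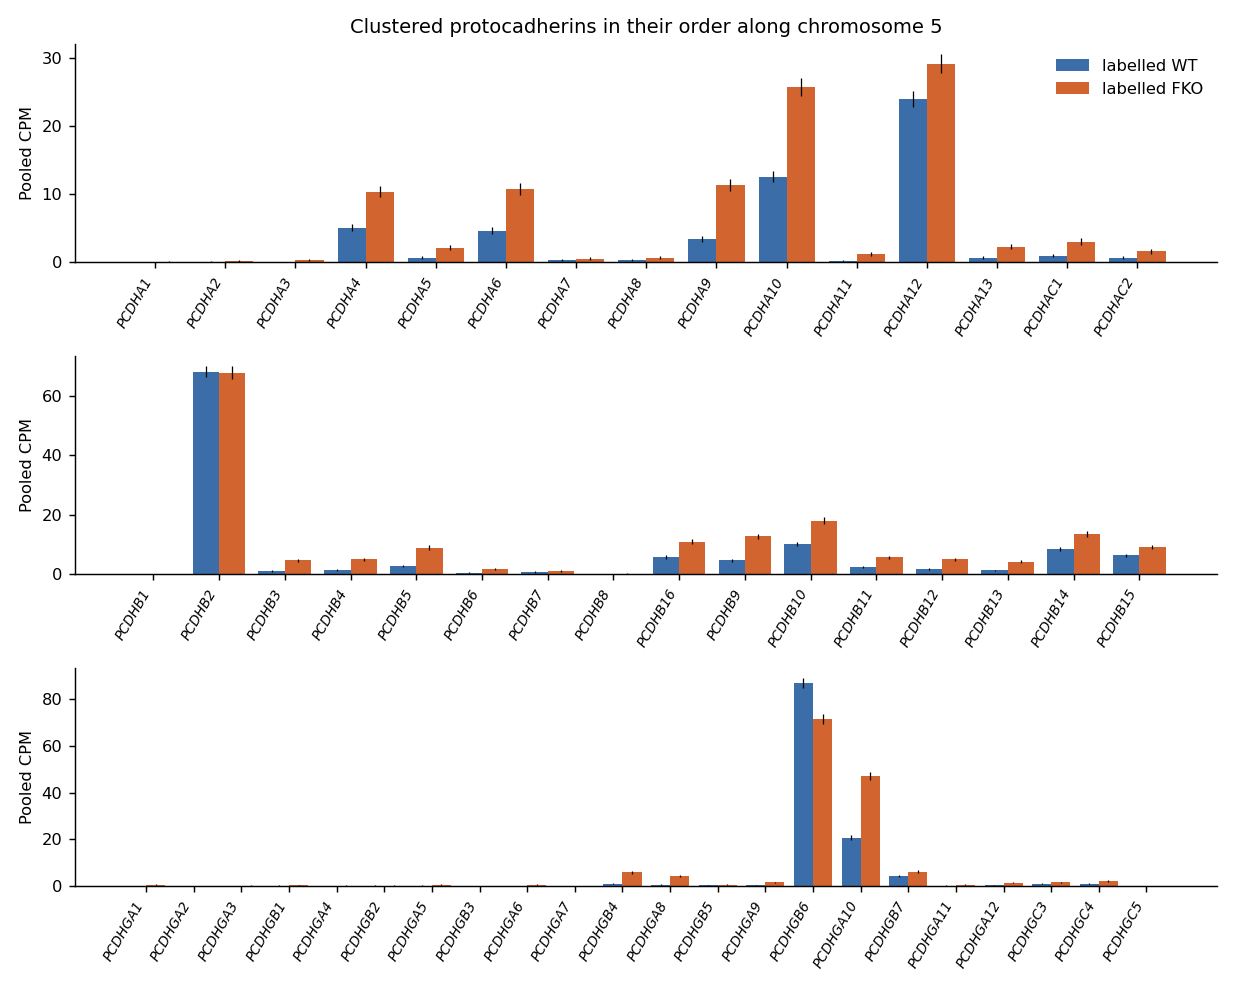
Pooled CPM of the clustered protocadherins in their order along chromosome 5, with 95% intervals, for the libraries labelled WT and FKO, with PCDHA above, PCDHB in the middle and PCDHG below. PCDHB2 (68.1 and 67.8 CPM) and PCDHGB6 (86.8 and 71.4 CPM) stand above the other genes of their arrays, most of which are higher under FKO.

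Over all genes too, ratios were lower at higher levels. Genes with an average of at least 20 CPM over the libraries had a median log2 ratio of 0.37, those of 5 to 20 CPM 0.61 and those of 1 to 5 CPM 0.78. The clustered genes had 0.14 (4 genes), 1.02 (11 genes) and 1.67 (14 genes) in the same ranges. The non-clustered genes ran the other way, with 1.35 (6 genes), 1.10 (3 genes) and 0.51 (1 gene), and the classical genes had 1.07 (5 genes), 1.24 (7 genes) and 4.70 (2 genes). Over all genes, the median also rose with gene length, from 0.31 up to 10 kb to 1.001 over 300 kb. The 15 members up to 10 kb had a median of 1.43, and the 9 members over 300 kb had 1.10. In the ranges between, members had 1.09 (10 to 30 kb, 4 genes), 1.19 (30 to 100 kb, 9 genes) and 1.39 (100 to 300 kb, 21 genes). The medians of members thus rose over these middle ranges, but not from the shortest range to the longest. PCDHB genes are short, with a median of 3.95 kb, against 171 kb in PCDHA.

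Clusters were built in each library apart, from variable genes without the members, and gave 9 clusters in the WT-labelled library and 10 in the FKO-labelled library. The cycling-like, mesenchymal-like and stress-like clusters are named from markers, and the others are called by 1 of their 10 leading genes. The LHX1-led cluster labelled FKO had 3 markers of glutamatergic interneurons among these (SLC17A6, LHX9 and LHX1) and 320 CPM over that list. The LHX1-led cluster labelled WT had 1 of them and 185 CPM. Clusters of the libraries were paired when each shared the most leading genes with the other, at least 2 of 10, which gave 7 pairs. In each pair, the median gene lay between 0.39 and 0.53.

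PCDH17 was higher in the FKO-labelled library in 7 of 7 pairs, at 1.06 to 1.97 above the median gene of the pair. PCDH7 was above it by 0.95 to 2.68 and PCDHGA10 by 0.64 to 1.07, each in 7 of 7. PCDH19 was above it by 0.23 to 2.61, and most so in the pair led by SLC17A8, with 5.73 CPM (4.20 to 7.65) and 49.9 CPM (44.2 to 56.1). PCDH10, CDH4, CDH6 and PCDHA10 were also above the pair's median gene in 7 of 7. Of the 19 members with at least 10 CPM in every pair, 11 were higher in the FKO-labelled library in each pair, against 56.2% of 8488 genes with such levels, a share near that of the members. Above the pair's median gene in each pair were 8 of the 19, against 31.7% of the genes. With other clusterings, 13 of 22, 8 of 17 and 10 of 18 members were higher in each pair, against 58.0%, 49.0% and 55.5% of genes. Above the pair's median gene in each pair were then 10 of 22, 4 of 17 and 7 of 18 members, against 34.3%, 23.5% and 31.0% of genes, so at the finest clustering the members' share was that of all genes. PCDHGB6 was higher in 1 of 7 pairs, PCDHB2 in 4 of 7 and CDH9 in 2 of 6. CDH18, with a pooled ratio above 0, was higher in 2 of 7 pairs and above the pair's median gene in 1, with log2 ratios from -0.96 in the pair led by LHX1 to 0.65 in the pair led by STC1. CDH2 was higher in 7 of 7 pairs but above the pair's median gene in 4. PCDHA12 was higher in 5 of 7 pairs and above the pair's median gene in 0 of 7.

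**Figure D4:**
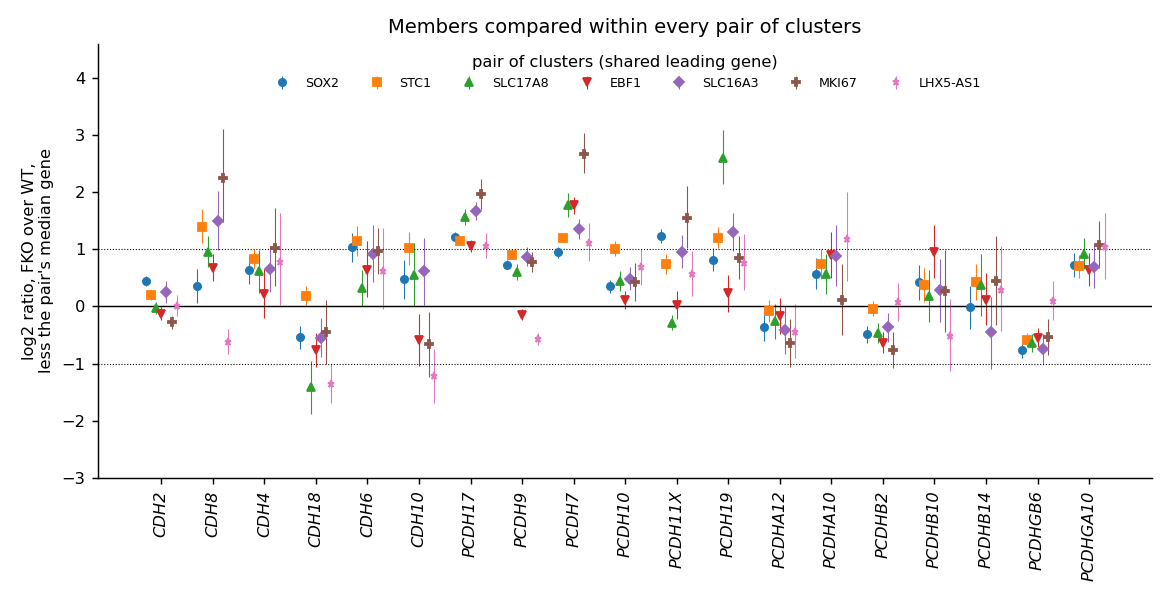
Log2 ratio of the pooled CPM (FKO over WT) after the pair's median gene is taken off, for the 19 members compared in all 7 pairs of clusters, with 95% intervals. PCDH17, PCDH7 and PCDHGA10 lie above 0 in every pair, and PCDHA12 lies under 0 in every pair although its ratio before the median gene is taken off is above 0 in 5.

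Some members followed cell groups in both libraries. CDH2 was highest in the cycling-like clusters, with 304 CPM (287 to 321) labelled WT and 363 CPM (343 to 383) labelled FKO. PCDH9 reached 563 CPM (529 to 598) and 499.6 CPM (481 to 519) in the clusters led by LHX1, where CDH8 had 139.6 CPM (123 to 158) and 119.7 CPM (110.5 to 129). PCDH11X reached 135 CPM (128 to 144) and 159 CPM (148 to 169) in the clusters led by SLC17A8. Under FKO it was nearly as high in the cluster led by SOX2, at 147.9 CPM, where the paired cluster labelled WT had 47.9 CPM. The 4 members named here were thus high in the same paired clusters of both libraries, but PCDH11X not in these alone under FKO. PCDH17 was among the 3 most abundant members in 9 of the 10 clusters labelled FKO, all but the mesenchymal-like cluster. PCDH9 was among them in 10 of 10 clusters labelled FKO, and CDH2 in 9 of 9 labelled WT.

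Clustered genes were spread more evenly over clusters than the other groups. Over clusters of at least 200 cells and genes of at least 10 CPM, the median coefficient of variation of the cluster CPM in the WT-labelled library was 0.182 for 6 clustered genes, 0.402 for 6 non-clustered and 0.42 for 6 classical genes. It was 0.170 over all 8182 genes. In the library labelled FKO it was 0.185 for 12 clustered, 0.348 for 6 non-clustered and 0.476 for 10 classical genes, and 0.147 over all 9491 genes. PCDHA12 was the most even member in both, at 0.088 and 0.0986, and CDH8 and PCDH11X were among the least even.

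**Figure D5:**
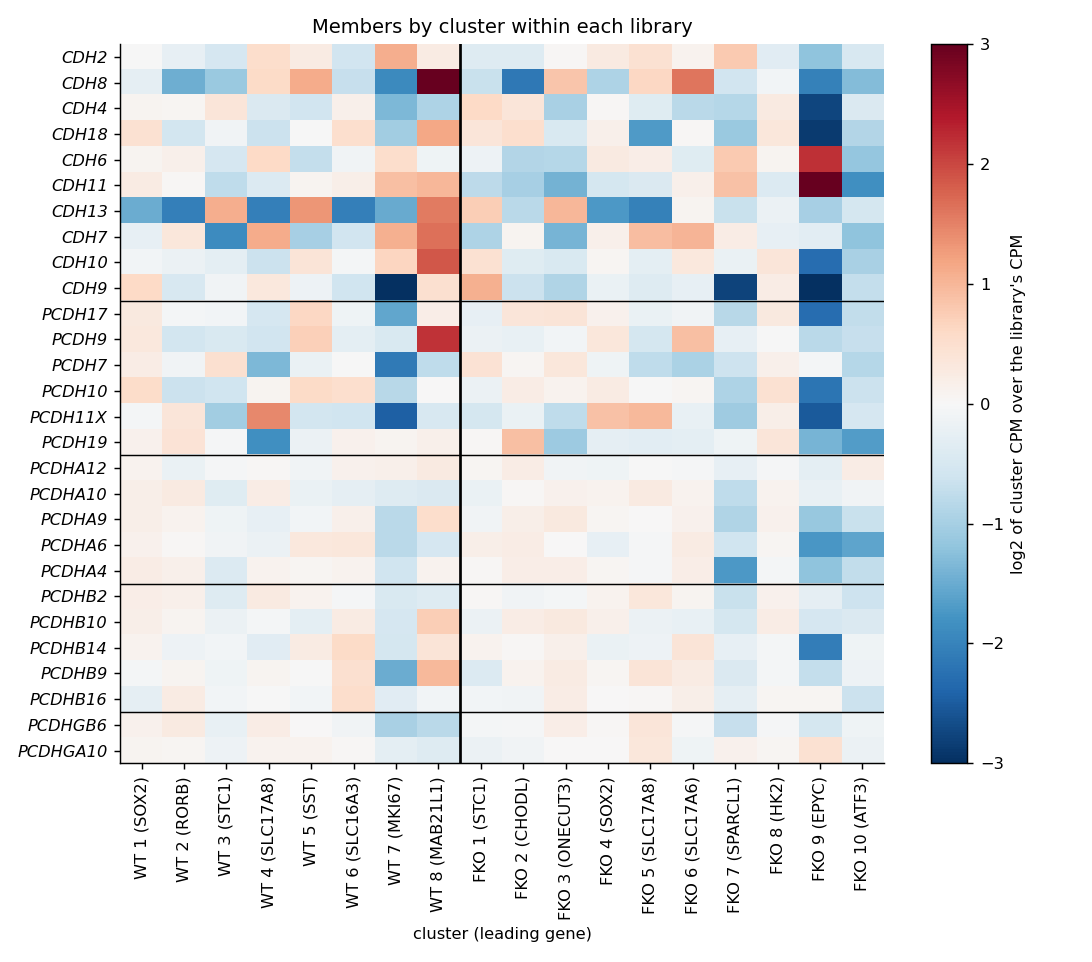
Log2 of the CPM in each cluster over the CPM of its library, for the 28 members with at least 10 CPM, with clusters labelled WT on the left and FKO on the right. The classical and non-clustered genes at the top vary in colour across clusters, as CDH8 and PCDH11X do, and the clustered genes below are paler.

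At the level of cells, depth differs between the libraries, so every cell was also reduced at random to 2000 UMIs. Cells with fewer, 43 under WT and 116 under FKO, were dropped for this. A PCDH17 UMI was then found in 16.8% (15.9% to 17.8%) of cells under WT and 43.6% (42.4% to 44.8%) under FKO, against 58.7% and 75.6% without thinning. A PCDHGB6 UMI was found in 15.5% (14.6% to 16.5%) and 13.7% (12.8% to 14.5%), against 57.6% and 36.6% without thinning. No cell group here is known to lack these genes, so their background share was not measured.

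A thinned cell held on average 0.219 PCDHB genes in the WT-labelled library and 0.327 in the FKO-labelled library, and 2 or more in 1.41% and 3.66% of cells. Without thinning the means were 1.04 and 1.10. PCDHGB6 and PCDHB2 were found together in 2.25% (1.88% to 2.67%) of the thinned cells labelled WT, where the product of their shares is 2.01%. In the library labelled FKO they were together in 1.95% (1.64% to 2.31%), with a product of 1.804%. In both, the product lay within the interval of the joint share. Most thinned cells held no UMI of an array, so the choice of isoforms within a cell was not detectable at this depth.

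The catenins and their partners were fixed as a list of 11 genes, all of which were compared. Of these 10 were higher in the FKO-labelled library, against 76.0% of all genes, and 7 lay above the median gene. At 2-fold from it there were 0 in either direction, against 11.7% of all genes above and 11.1% below. Their median log2 ratio was 0.82. CTNNB1, the beta-catenin that binds the tail of classical cadherins, had 32.0 and 58.4 CPM, at 0.87 (0.79 to 0.94). CTNND2, the delta-catenin of neurons, had 65.5 and 159.7 CPM, at 1.29 (1.24 to 1.34). This was the highest ratio of the 11, and it lay under those of PCDH17 and PCDH7.

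Among 25 other genes of the cadherin superfamily, 17 were compared, with a median of 1.09, and 2 lay at least 2-fold above the median gene and 1 below. Of all genes compared, 11.7% lay above and 11.1% below, so the share above is near that of all genes. Those above were CLSTN2, a synaptic calsyntenin, at 15.7 and 55.7 CPM, and the receptor kinase RET, at 1.03 and 6.06 CPM. CDHR3 lay below, at 2.20 and 1.34 CPM. Of the 5 proteases that shed cadherins or cleave their stubs, 5 were compared and 0 lay 2-fold from the median gene, with a median of 0.76. Of 5 repressors of CDH1, 4 were compared and 0 lay 2-fold from it, with a median of 0.98. ZEB2 was at 38.2 and 97.5 CPM and ZEB1 at 94.6 and 144 CPM, both well above CDH1. Of 8 chromatin factors that act on the clustered arrays, 8 were compared and 0 lay 2-fold from it, with a median of 0.70. CTCF, which binds their promoters, had 59.8 and 90.3 CPM, at 0.59 (0.54 to 0.65), or 0.01 above the median gene.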

How the data were processed

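The deposited values were count matrices of UMIs per gene and barcode, made by the authors with Cell Ranger against GRCh38. The submitters' notes name version 7.0 and the matrix header names 7.1.0. Here cells were filtered and counts pooled per library, with CPM, exact Poisson intervals for levels, exact conditional intervals for ratios and Clopper-Pearson intervals for shares. Clusters came from Leiden at resolution 0.5 on 2000 variable genes without the members, 30 principal components and 15 neighbours. Tools were Python 3.11.15, numpy 2.4.6, scipy 1.17.1, pandas 2.3.3, scanpy 1.11.5, leidenalg 0.10.2 and matplotlib 3.10.9. Gene positions came from GENCODE 29 and promoters from RefSeq.

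Every member with at least 10 CPM in either library was named, then members of 1 to 10 CPM at least 2-fold from the median gene, and in cell groups the 3 members with the highest CPM. Other names were chosen after their values had been seen. The members and lists were chosen with earlier results of these data known. The calculation was tested on simulated counts. Alternatives changed the cells, depth, scaling, filters and clusterings.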

Additional observations from a re-analysis of the deposited data

Results flagged for a closer look

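CDH10, a type II cadherin, differed between the libraries in opposite directions in different pairs of clusters. In the pair of clusters led by STC1, it had 7.82 CPM (151 UMIs) in the library labelled WT and 21.8 CPM (289 UMIs) in the library labelled FKO, which is a log2 ratio of 1.02 (0.73 to 1.31) relative to the median gene of the pair. In the pair led by LHX1, it had 34.5 CPM (63 UMIs) and 19.5 CPM (101 UMIs), which is -1.22 (-1.69 to -0.74) relative to the median gene of the pair. It stood out because the value is above 1 in one pair and below -1 in the other, with intervals that leave out 0. The STC1-led pair has 1165 cells labelled WT and 1340 labelled FKO, and its clusters share 2 of 10 leading genes, the least that the pairing allows. How alike its cells are was not tested. The LHX1-led pair has 119 cells labelled WT and 553 labelled FKO, and shares 4 leading genes. The difference between the pairs was not tested.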

How the results depend on the processing

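With at most 5% mitochondrial UMIs, the median log2 ratios were 0.94 for classical, 1.24 for non-clustered and 1.07 for clustered genes, 2 members lay at least 2-fold below the median gene, and PCDHA11 reversed to -0.18. At this limit 4 of the 57 members still compared had 0 UMIs under WT and were taken at their lower bound. CDH19 also had 0 under WT there, but at 0.95 CPM under FKO it fell under the filter and was not compared. With cells thinned to 2000 UMIs the non-clustered median was 1.23, and with mitochondrial and ribosomal protein UMIs left out of the denominator it was 0.98. With the mean of the per-cell CPM, 1 member lay 2-fold below the median gene. Relative to the median gene, the medians were 0.66, 0.51 and 0.66, which follows from the subtraction. With a filter of 10 CPM, the non-clustered median was 1.35, the clustered median 0.98 and 5 members lay 2-fold above the median gene, over 28 members in place of 58. With a filter of 0.1 CPM, 2 members lay 2-fold below it. Except where the construction shows it, the cause was not tested.

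Of the 58 members compared, 53 of 57 with a value kept their direction at 5% mitochondrial UMIs, 51 of 58 relative to the median gene, 57 of 58 after thinning and 56 of 57 outside the side clusters. In the other alternatives run, every member compared kept it. The side of the median gene changed for 4 of 57 members at 5% mitochondrial UMIs, 4 of 58 with no filter on barcodes, 3 of 58 with a filter of 0.1 CPM, 3 of 57 outside the side clusters, and for at most 2 members in each other alternative. Of the 22 members at least 2-fold above the median gene, 12 of the 21 still compared stayed so at 5% mitochondrial UMIs, where 4 others had only a lower bound, 16 of 22 after thinning, 18 of 22 with no filter on barcodes, 19 of 22 with the mean of the per-cell CPM and 11 of 22 with a filter of 0.1 CPM. In the other alternatives, at most 2 of those still compared did not. The cells outside the side clusters and the filter on the average CPM were chosen after seeing the data. An alternative on a serotonergic-like class was not run, since no cluster met the naming rule for it.

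Depth limits the low genes: 30 members were under 1 CPM, and 7 were at or under 3 UMIs in both libraries. The limit of 5% mitochondrial UMIs left 336 cells labelled WT. With 1 library per genotype, genotype and library cannot be told apart.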
